A study of Homo sapiens with 9 samples.

Results

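The loci described here are the genes of the NF-κB subunits, NFKB1, NFKB2, RELB, REL and RELA, together with BCL3. Binding was read from chromatin immunoprecipitation sequencing (ChIP-seq) in the established human cell line 786-O, derived from a clear cell renal carcinoma. A called peak was counted when its summit, the position of highest signal, lay within 25 kb of the hg19 start of 1 of the 6 genes. These starts are chr4:103422486 for NFKB1, chr10:104154335 for NFKB2, chr19:45504707 for RELB, chr2:61108752 for REL, chr11:65430443 for RELA and chr19:45251978 for BCL3. Of 60345 peaks in the 5 deposited lists, 57 met this rule.

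The p65 antibody, against the RELA protein, was used in 4 conditions: 786-O cells with an siRNA against TEAD (siTEAD4 in the sample title, siTEAD in the treatment label), control cells, cells given XMU-MP-1, and vehicle-treated cells. XMU-MP-1 inhibits the Hippo pathway kinases MST1 and MST2. A TEAD antibody was used in XMU-MP-1 cells only, and the labels do not name the TEAD protein it recognises. All libraries come from the same line, with a single library for each condition. No difference between conditions could be checked against replicates, and none was tested. The peak identifiers of the list labelled siTEAD4 carry the name p65_Vert, which is in no label, so the treatment behind that list rests on its label alone.

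NF-κB proteins bind DNA as dimers through a shared Rel homology domain. NFKB1 and NFKB2 encode precursors that are processed to the subunits p50 and p52, which bind DNA but lack an activation domain. RELA (p65), RELB and REL (c-Rel) carry activation domains, and RELB pairs mainly with p52 in the non-canonical pathway. BCL3 is an atypical nuclear member of the IκB family that binds p50 and p52 homodimers. Several of these genes are known targets of NF-κB, so the factor can feed back on its own subunit genes.

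The promoter sequences are shown because p65 was called at the start of every gene of the group in the control and vehicle lists. They are from the set of RefSeq promoters (GRCh38.p14) used here, which holds 9 promoters of 5 of the 6 genes. RELB has no entry in that set. Each line runs 5′ to 3′ from 190 bases before a RefSeq start through the first 20 bases from it on. Capitals mark matches to the NF-κB consensus GGGRNWYYCC, searched on both strands with overlapping matches counted as 1 stretch. In it R is A or G, Y is C or T, W is A or T and N is any base. The 5 promoters with a match are given first, and both RELA promoters, which hold none, follow. The second NFKB1 start and the first NFKB2 start also hold none and are not printed. Peak coordinates are in hg19 and were not converted, so summits cannot be placed on these letters.
NFKB1 first start (chr4:102501169-102501378, plus strand): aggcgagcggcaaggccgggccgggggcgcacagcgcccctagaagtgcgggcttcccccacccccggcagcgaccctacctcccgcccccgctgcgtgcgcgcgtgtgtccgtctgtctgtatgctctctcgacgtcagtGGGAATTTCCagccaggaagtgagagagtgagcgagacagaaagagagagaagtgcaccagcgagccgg
NFKB2 second start (chr10:102394388-102394597, plus strand): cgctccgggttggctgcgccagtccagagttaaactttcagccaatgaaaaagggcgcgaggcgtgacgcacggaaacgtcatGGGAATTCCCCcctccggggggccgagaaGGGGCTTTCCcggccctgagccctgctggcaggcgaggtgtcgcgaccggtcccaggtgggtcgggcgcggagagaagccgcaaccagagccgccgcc
NFKB2, the third start (chr10:102395515-102395724, plus strand): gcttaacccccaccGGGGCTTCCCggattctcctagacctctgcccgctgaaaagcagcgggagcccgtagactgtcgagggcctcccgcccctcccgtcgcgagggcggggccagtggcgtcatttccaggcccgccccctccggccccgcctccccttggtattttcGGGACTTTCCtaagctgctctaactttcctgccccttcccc
REL (chr2:60881384-60881593, plus strand): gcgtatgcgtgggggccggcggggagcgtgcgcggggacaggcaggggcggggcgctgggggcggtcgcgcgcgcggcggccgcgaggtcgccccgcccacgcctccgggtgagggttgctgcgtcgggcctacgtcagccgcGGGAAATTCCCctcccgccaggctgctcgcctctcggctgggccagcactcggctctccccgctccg
BCL3 (chr19:44748518-44748727, plus strand): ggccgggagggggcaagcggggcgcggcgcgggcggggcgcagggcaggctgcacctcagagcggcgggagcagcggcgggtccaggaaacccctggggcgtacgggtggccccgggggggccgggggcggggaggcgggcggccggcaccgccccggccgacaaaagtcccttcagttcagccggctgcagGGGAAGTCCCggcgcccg
RELA first start (chr11:65663838-65664047, minus strand): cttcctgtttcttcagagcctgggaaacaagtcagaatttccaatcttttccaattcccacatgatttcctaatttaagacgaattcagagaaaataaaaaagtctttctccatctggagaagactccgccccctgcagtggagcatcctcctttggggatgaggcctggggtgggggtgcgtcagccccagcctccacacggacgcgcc
RELA second start (chr11:65662897-65663106, minus strand): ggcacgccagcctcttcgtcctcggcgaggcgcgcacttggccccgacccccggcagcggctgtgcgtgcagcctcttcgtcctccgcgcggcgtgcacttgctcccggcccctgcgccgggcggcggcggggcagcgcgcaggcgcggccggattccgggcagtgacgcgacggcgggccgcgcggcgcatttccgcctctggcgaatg

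Over the full 300 bases of each entry, 5 of the 9 promoters held the NF-κB consensus, against 5.91% of all 35116 promoters of the set. By gene this was 4 of 5 genes, against 7.09% of 27305 genes. NFKB2 held 2 separate stretches before its second start and 2 before the third. The match of the NFKB1 promoter, GGGAATTTCC, begins at position -49, with the start base counted as 0, and that of REL, GGGAAATTCC, at -47. In BCL3 the match GGGAAGTCCC begins at position 2. The TEAD motif GGAATG, or CATTCC on the other strand, was in 1 of the 9 promoters, at the second NFKB1 start, against 14.0% of all promoters. The AP-1 motif TGANTCA was in none of the 9, against 7.71%. A match describes letters and is not a measured binding site.

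The lists differ in size, with 1813 p65 peaks in the list labelled siTEAD4, 15465 in the control, 1649 in the XMU-MP-1 and 17958 in the vehicle list, and 23460 TEAD peaks. Read totals are not in the lists. The number of fragments at each summit was therefore solved from the deposited fold enrichment and p-value of the peak. From the solved background, the relative depth was 1.064 for the list labelled siTEAD4 over control and 1.597 for XMU-MP-1 over vehicle. The fewest fragments behind any solved peak were 12 in the list labelled siTEAD4 and 14 in control, where 99.19% of peaks were solved. They were 14 for p65 under XMU-MP-1 against 7 for vehicle, and 6 for TEAD. A vehicle site with few fragments can thus lie under the lowest count called in the XMU-MP-1 list, and the part of this in the lost peaks was not tested. Deposited folds are the authors' values, each set against the local background of its peak, and the input behind that background is not given. Intervals on fragments are exact Poisson 95% intervals and cover counting error only.

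Around the 6 genes there were 6 p65 peaks in the list labelled siTEAD4 and 18 in the control list. The XMU-MP-1 list had 6 and the vehicle list 16, and the TEAD list had 11. BCL3 held 27 of the 57 peaks, NFKB2 10, NFKB1 7, RELA 5, and RELB and REL 4 each. Joining overlapping peaks of the 5 lists gave 20 sites, 11 of them at BCL3. A vehicle peak was found at 16 of the 18 control peaks (88.9%), against 79.5% of all control peaks, and a control peak at 15 of the 16 vehicle peaks (93.8%), against 68.5%. Of the 20 sites, 15 were called in both control and vehicle cells, 3 were called in all 5 lists, and 4 in 1 list only. The peaks were strong in the reference lists: 9 of 18 control peaks and 10 of 16 vehicle peaks (62.5%) lay in the strongest decile of fold, which holds 10.0% of each list by construction. The median fold was 12.34 for the 18 control peaks and 5.98 for all control peaks, and 13.85 for the 16 vehicle peaks and 5.87 for all vehicle peaks. The TEAD peaks were not strong, with a median fold of 5.30 against 6.27 in the whole list and none of 11 in the strongest decile.

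At their starts, 2 of the 6 genes had a p65 peak in the list labelled siTEAD4 (NFKB1 and NFKB2), against 6 of 6 in the control list. The XMU-MP-1 list had a start peak at 4 genes (NFKB1, NFKB2, RELB and REL), against 6 of 6 in the vehicle list. RELA and BCL3 had no start peak in either treated list. Over the whole lists, 11.2% of control peaks overlapped a peak of the list labelled siTEAD4, and 8.77% of vehicle peaks overlapped an XMU-MP-1 peak. In the strongest decile of fold these shares were 57.5% and 46.7%. Of the 4 starts in that decile of the control list, 2 had a peak in the list labelled siTEAD4, and of the 4 in that decile of the vehicle list, 3 had one in the XMU-MP-1 list. Nothing particular to these starts is read from the missing peaks. A start peak is here the one with its summit nearest the start, within 1 kb, so short distances are partly fixed by this choice. These reference summits lay 42 to 227 bp from the starts in control cells and 16 to 209 bp in vehicle cells. Control and vehicle summits at the same start lay 3 to 35 bp apart. TEAD was called at the starts of NFKB1, NFKB2 and REL.

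**Figure D1:**
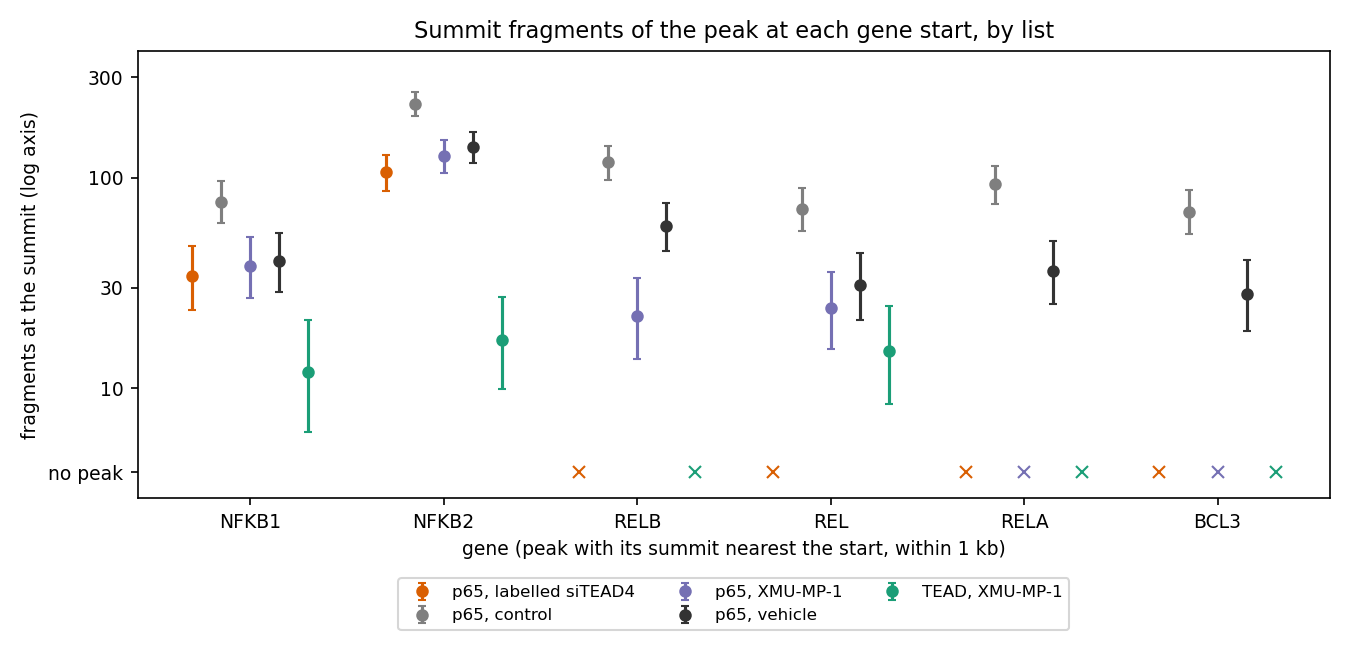
Fragments at the summit (vertical log axis) of the peak nearest each gene start, within 1 kb, for the 6 genes and 5 lists; bars are exact Poisson 95% intervals, crosses mark lists with no peak there, and depth differs between lists. NFKB1 and NFKB2 have a point in all 5 lists, while RELA and BCL3 have points only in the control list (93 and 69 fragments) and the vehicle list (36 and 28).

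NFKB2, the precursor of p52, had the highest p65 fold of the group in each of the 4 p65 lists. The summit nearest its start held 106 fragments (86.8 to 128) in the list labelled siTEAD4 and 224 (196 to 255) in the control. In XMU-MP-1 cells it held 126 (105 to 150), and in vehicle cells 139 (117 to 164). The deposited folds were 23.3 for the list labelled siTEAD4 and 44.1 for control, and 14.2 for XMU-MP-1 and 29.6 for vehicle. By fold this peak ranked 5 of 1813 in the list labelled siTEAD4 and 2 of 15465 in the control list. It ranked 75 of 1649 in the XMU-MP-1 list and 71 of 17958 in the vehicle list. The list labelled siTEAD4 had 3 separate peaks here, of 483, 258 and 322 bp, where the control list had 1 broad peak of 1983 bp. Their summits lay at -90, 244 and 1120 bp from the start, with folds of 23.3, 3.32 and 6.57. The XMU-MP-1 list had 2 peaks, of 811 and 310 bp with folds of 14.2 and 5.34, where the vehicle list had 1 of 1965 bp. TEAD had 2 peaks in the same region, a weak one at -30 bp from the start (fold 3.80, 17 fragments) and another at 1073 bp (fold 6.27, 17 fragments). The TEAD summit at 1073 bp lay between the p65 summits of the XMU-MP-1 list, at 1068 bp, and of the list labelled siTEAD4, at 1120 bp. A separate TEAD peak 7.37 kb downstream (fold 5.02) had no p65 peak in any list.

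NFKB1, the precursor of p50, was bound at its start in all 5 lists. The summit held 34 fragments (23.5 to 47.5) in the list labelled siTEAD4 and 77 (60.8 to 96.2) in control cells. It held 38 (26.9 to 52.2) in XMU-MP-1 cells and 40 (28.6 to 54.5) in vehicle cells. The folds were 8.51 and 15.7 for the first pair and 7.69 and 15.4 for the second. The 4 p65 summits lay between -42 and -16 bp from the start, and the TEAD summit, with a fold of 5.29 and 12 fragments, lay at -32 bp. A further TEAD peak at 568 bp (fold 6.01) and a control p65 peak at 1.11 kb (fold 5.59) were each called in 1 list only.

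RELB, the activating partner of p52, and REL, which encodes c-Rel, had start peaks in the XMU-MP-1 list and none in the list labelled siTEAD4. No peak of the list labelled siTEAD4 lay nearer than 248 kb to the RELB start, where the control summit held 118 fragments (97.7 to 141) with a fold of 28.5, rank 59 of 15465. The RELB summit held 22 fragments (13.8 to 33.3) in XMU-MP-1 cells, with a fold of 6.45, against 59 fragments (44.9 to 76.1) and a fold of 22.6 in vehicle cells. The nearest TEAD summit was 91.4 kb away. A second control peak at RELB, 571 bp past the start with a fold of 6.54, fell inside the vehicle peak of 1059 bp. At REL the summit held 24 fragments (15.4 to 35.7) in XMU-MP-1 cells and 31 (21.1 to 44.0) in vehicle cells, with folds of 5.23 and 10.5. The list labelled siTEAD4 had no peak at REL, and the control summit held 71 fragments (55.5 to 89.6) with a fold of 12.5. REL was the only start where the TEAD fold, 6.05, was above the p65 fold of the XMU-MP-1 list, 5.23, and these folds come from different libraries. The TEAD summit was 3 bp from the REL start.

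RELA, the gene of p65 itself, had 2 sites. At its start the summit held 93 fragments (75.1 to 114) in control and 36 (25.2 to 49.8) in vehicle cells, with folds of 11.1 and 14.3. RELA is on the minus strand, so these summits, 227 and 209 bp on the side of higher coordinates, lie upstream of the start. The other site, at -10.06 kb and thus downstream, was weak, with folds of 5.09 in control and 4.95 in vehicle cells beside a TEAD fold of 4.86. No treated p65 list had a peak at either site.

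BCL3 had a cluster of p65 sites. Its window held 2 peaks of the list labelled siTEAD4, against 10 control peaks, and 1 peak of the XMU-MP-1 list, against 10 vehicle peaks. Only 0.53% of all control peaks and 0.557% of all vehicle peaks had 10 or more summits of their own list within 25 kb. The median was 2. These counts are centred on each peak and include it, while those of BCL3 are centred on the gene start, so the measures differ. Of 9 BCL3 sites called in both control and vehicle cells, 7 lay upstream of the start or at it and 2 downstream. The strongest in control cells was at -9.69 kb. It had a fold of 5.05 (23 fragments) in the list labelled siTEAD4, against 30.2 (125 fragments) in control cells. XMU-MP-1 cells had no peak there, against a vehicle fold of 21.8 (61 fragments), and TEAD was not called. The strongest in vehicle cells was at -1.20 kb. It had no peak in the list labelled siTEAD4 or the XMU-MP-1 list, against a control fold of 25.9 (120 fragments) and a vehicle fold of 26.02 (63 fragments), and no TEAD peak.

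The BCL3 site 4.76 kb downstream of the start was the only BCL3 site in all 5 lists. Its p65 fold was 4.58 (28 fragments) in the list labelled siTEAD4 and 13.8 (116 fragments) in control cells. It was 8.03 (50 fragments) in XMU-MP-1 cells and 22.4 (69 fragments) in vehicle cells. The TEAD fold was 8.59 (29 fragments), the highest of the 11 TEAD peaks of the group, and the 5 summits lay between 4746 and 4769 bp from the start. The peak at the BCL3 start was weaker, with folds of 9.58 in control (69 fragments) and 11.9 in vehicle cells (28 fragments). The remaining sites common to control and vehicle, at -23.4, -11.2, -6.72, -3.22 and 5.80 kb in the control list, had control folds of 14.3, 6.79, 14.4, 12.2 and 5.12. None of these 5 had a treated p65 peak. Over the whole lists, 11.2% of control peaks overlapped a peak of the list labelled siTEAD4 and 8.77% of vehicle peaks an XMU-MP-1 peak. TEAD was called at 2 of these 5 sites, with folds of 5.30 at -11.2 kb and 7.93 at -6.65 kb. The 2 remaining BCL3 sites, at -24.0 and -11.8 kb, were called in 1 of the reference lists each.

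**Figure D2:**
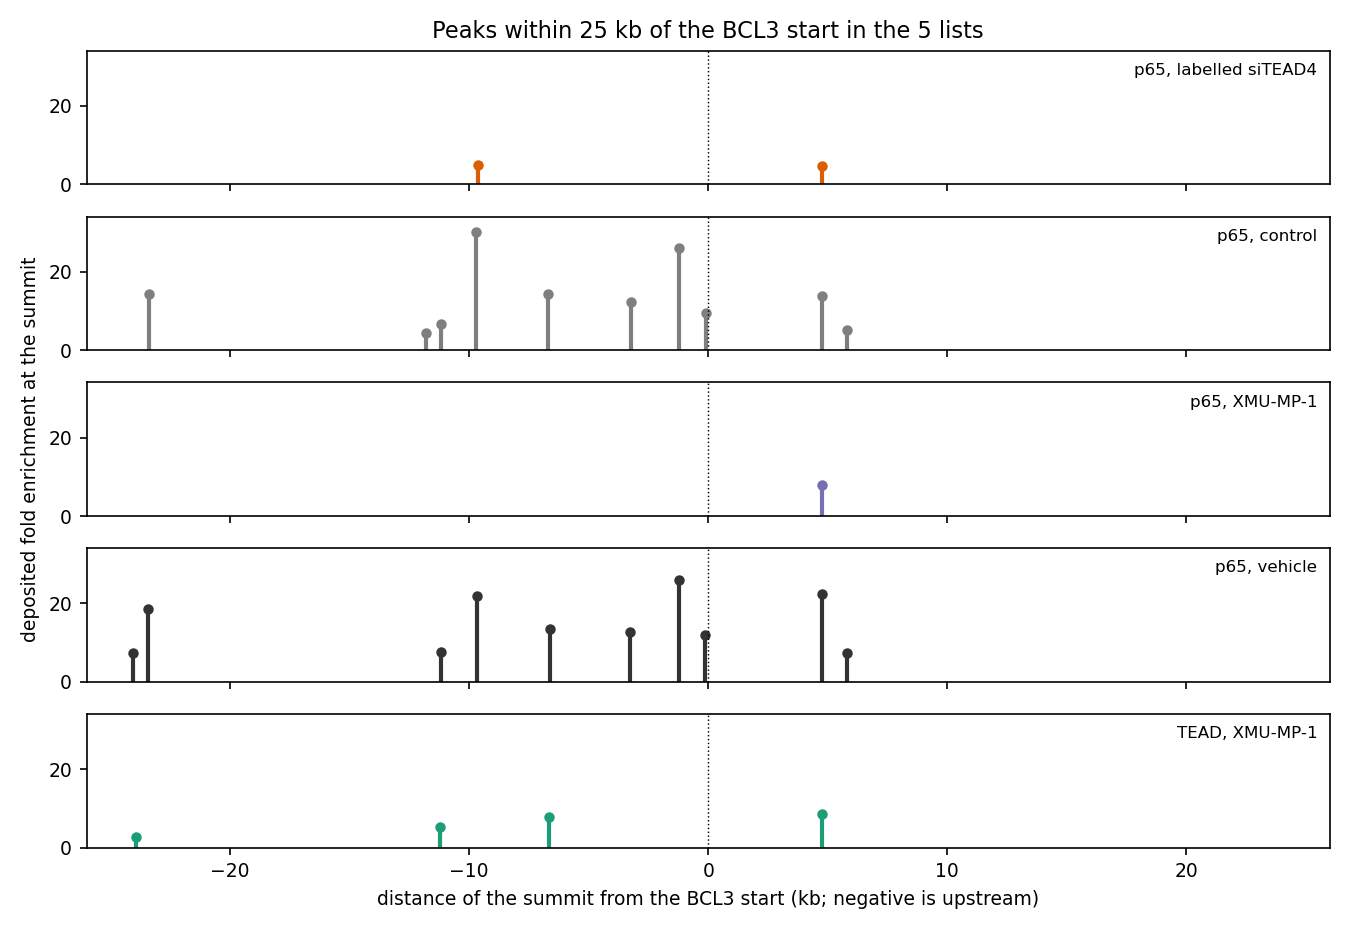
Deposited fold enrichment (vertical axis, 0 to 34) of each peak against the distance of its summit from the BCL3 start (horizontal axis, kb, negative is upstream), 1 panel per list. The panel of the list labelled siTEAD4 holds 2 peaks and that of the control 10, the XMU-MP-1 panel holds 1 and the vehicle panel 10, and the TEAD panel holds 4. Over the whole lists, 11.2% of control peaks overlapped a peak of the list labelled siTEAD4 and 8.77% of vehicle peaks an XMU-MP-1 peak.

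In the comparison of siTEAD4 with control, control peaks that shared 1 bp or more with a peak of the list labelled siTEAD4 are called kept, and the others lost. Of the 18 control peaks of the group 4 were kept (22.2%, Wilson 95% interval 9.0 to 45.2), against 11.2% of all control peaks. All 4 were in the strongest decile of fold, where 4 of 9 (44.4%) were kept, against 57.5% of all control peaks of that decile. Of the 9 weaker ones none was kept, against 6.09%. The group is richer in strong peaks than the list, and within the strongest decile its share was not above that of the list. The kept peaks were the starts of NFKB1 and NFKB2 and the BCL3 sites at -9.69 and 4.75 kb. By gene, 2 of 8 peaks at the subunit genes and 2 of 10 at BCL3 were kept. All 6 peaks of the list labelled siTEAD4 had a control peak, against 96.3% of that whole list. The Wilson intervals on shares, here and below, treat the peaks of a library as independent, although 10 of these 18 are at BCL3. They do not cover the difference between libraries of a condition.

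In the comparison of XMU-MP-1 with vehicle, 5 of the 16 vehicle peaks were kept (31.2%, 14.2 to 55.6), against 8.77% of all vehicle peaks. In the strongest decile 4 of 10 were kept (40.0%), against 46.7%, and 1 of the 6 weaker ones (16.7%), the REL start, against 4.56%. The kept peaks were the starts of NFKB1, NFKB2, RELB and REL and the BCL3 site 4.75 kb downstream. All 6 XMU-MP-1 peaks of the group had a vehicle peak, against 95.7% of the whole list. At the subunit genes 4 of 6 vehicle peaks were kept, and at BCL3 1 of 10; with 1 library per condition this split was not tested. Of 16 control peaks with a vehicle peak, 3 were kept in both treated lists (18.8%), against 9.56% of all such peaks.

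**Figure D3:**
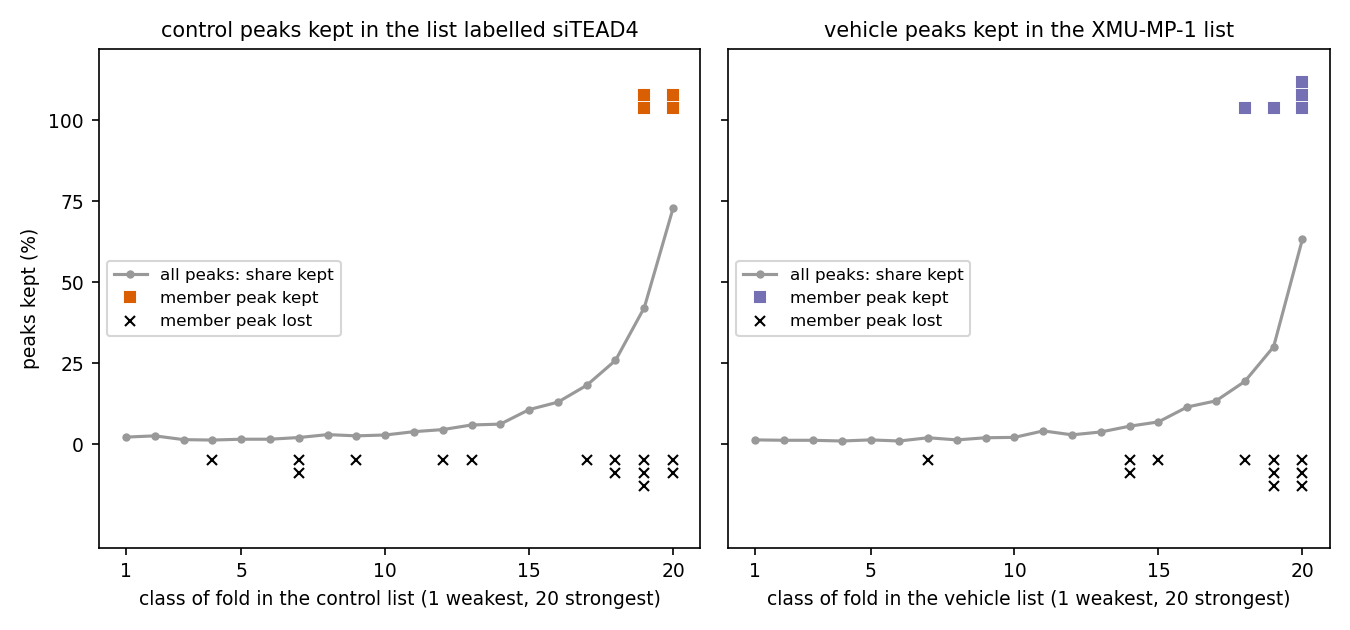
Share kept (vertical axis, percent) of all control peaks in the list labelled siTEAD4 (left) and of all vehicle peaks under XMU-MP-1 (right), in 20 classes of deposited fold from weakest to strongest; squares above mark kept and crosses below mark lost peaks of the 6 genes. The kept peaks of the group sit in classes 18 to 20, and lost peaks of the group are found in the same classes.

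Within the strongest twentieth of the control list, with folds of 16.0 to 51.5, 72.9% of all peaks were kept in the list labelled siTEAD4. The group has 4 peaks in that class, of which the NFKB2 start and the BCL3 site at -9.69 kb were kept and the RELB start and the BCL3 site at -1.22 kb were lost. In the strongest class of the vehicle list 63.3% of all peaks were kept under XMU-MP-1. There the NFKB2 and RELB starts and the BCL3 site at 4.75 kb were kept, and the BCL3 sites at -23.4, -9.67 and -1.20 kb were lost.

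At kept sites the summit fragments of the treated list were set against those of the reference. The ratio at the NFKB1 start was 0.442 (exact 95% interval 0.286 to 0.669) for the list labelled siTEAD4 over control, and at the NFKB2 start 0.473 (0.372 to 0.599). At BCL3 it was 0.184 (0.113 to 0.289) at -9.69 kb and 0.241 (0.154 to 0.367) at 4.75 kb. Over all 1736 kept control peaks with solved fragments the median was 0.368, with the middle of the distribution between 0.289 and 0.475. Both BCL3 ratios lay below that range, and those of the NFKB1 and NFKB2 starts in its upper part. The interval at 4.75 kb reached into the range, and the interval at -9.69 kb ended at its lower limit. The range was not matched for strength. Every peak of the list labelled siTEAD4 held at least 12 fragments, so control peaks with few fragments cannot show a low ratio. Whether the BCL3 ratios differ from those of equally strong peaks was not tested.

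For XMU-MP-1 over vehicle, where the treated library was 1.597 times as deep, the ratio was 0.95 (0.593 to 1.52) at NFKB1 and 0.906 (0.707 to 1.16) at NFKB2. It was 0.774 (0.435 to 1.36) at REL, 0.373 (0.218 to 0.618) at RELB and 0.725 (0.493 to 1.06) at the BCL3 site. The median over 1575 kept vehicle peaks was 0.783, with the middle of the distribution between 0.603 and 1.05. RELB had the lowest of the 5 ratios, and the lower quartile of all kept peaks lies inside its interval. Divided by the relative depth, the 5 ratios were 0.595 at NFKB1, 0.568 at NFKB2, 0.485 at REL, 0.234 at RELB and 0.454 at BCL3, beside 0.49 for the median of all kept peaks. These intervals cover counting error and not the difference between libraries of 1 condition.

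**Figure D4:**
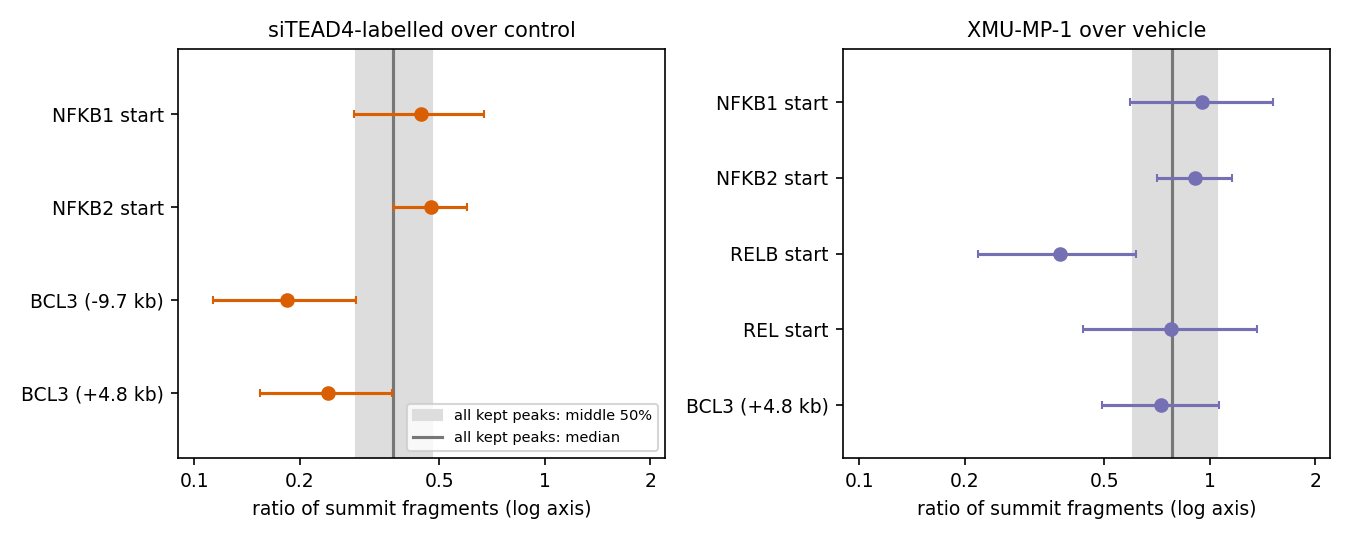
Ratio of fragments at the summit, treated over reference (horizontal log axis), at each kept site of the group with exact 95% intervals for counting error; the line and grey band are the median and the middle 50% of all kept peaks. For the list labelled siTEAD4 the BCL3 sites (0.184 and 0.241) lie left of the band, and for XMU-MP-1 RELB (0.373) does.

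TEAD was called at 7 of the 18 control peaks (38.9%, 20.3 to 61.4), against 47.4% of all control peaks, and at 8 of 16 vehicle peaks (interval 28.0 to 72.0%), against 45.6%. It was called at 4 of the 6 peaks of the list labelled siTEAD4 (66.7%), against 71.6% of that list, and at 5 of the 6 XMU-MP-1 p65 peaks (83.3%), against 75.2%. These shares are near their backgrounds, and those of both treated lists count the NFKB2 start region more than once. Seen from TEAD, 5 of its 11 peaks (45.5%) had a p65 peak in XMU-MP-1 cells, against 5.26% of all TEAD peaks, and 9 of 11 (81.8%) had a vehicle p65 peak, against 34.5%. Every TEAD peak of the group had a vehicle p65 summit within 25 kb. Over the 15377 TEAD peaks of the whole list with such a summit, a background chosen after the values were seen, the shares were 7.98% for XMU-MP-1 p65 and 52.6% for vehicle p65. The part of p65 density in the group's shares was not tested further. The p65 and TEAD lists of XMU-MP-1 cells are the only pair from cells treated alike. In those cells the TEAD and p65 summits lay 15 bp apart at NFKB1, 77 bp at NFKB2 and 65 bp at REL. The XMU-MP-1 peak without TEAD was that of RELB.

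At the 6 gene starts, the 3 with a TEAD peak (NFKB1, NFKB2 and REL) all had an XMU-MP-1 p65 peak, and NFKB1 and NFKB2 also had a peak labelled siTEAD4. Of the 3 starts without TEAD, RELB had an XMU-MP-1 peak, RELA and BCL3 had none, and no start had a peak labelled siTEAD4. Over all control peaks, TEAD was called at 72.9% of those kept under the siTEAD4 label and at 44.2% of the lost ones. For vehicle peaks kept and lost in the XMU-MP-1 list these shares were 77.6% and 42.6%. For the group they were 3 of 4 kept and 4 of 14 lost control peaks, and 4 of 5 kept and 4 of 11 lost vehicle peaks. The kept control peaks of the group had a median fold of 22.95 and the lost ones 10.35, and for vehicle peaks these medians were 22.39 and 12.79. The folds overlapped: the lost control peak at the RELB start had 28.5, above the kept NFKB1 start at 15.7, and the lost vehicle peak of BCL3 at -1.20 kb had 26.02, above the kept REL start at 10.5. The part of strength in the TEAD shares was not tested.

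These genes have close neighbours. In the RefSeq annotation (GRCh38.p14) NFKB1-AS1 overlaps the NFKB1 start, PSD and GBF1 flank NFKB2, and CLPTM1 lies before RELB. REL-DT lies beside REL, RELA-DT and SIPA1 beside RELA, and CEACAM16-AS1 before BCL3. The lists do not say which gene a peak acts on. Near the limit of the rule, the outermost peaks inside it were at BCL3, at -24.0 kb (vehicle fold 7.32) and -23.9 kb (TEAD fold 2.74). The nearest outside were a TEAD peak at 25.7 kb from BCL3 (fold 11.5) and, at NFKB2, a vehicle peak at 26.5 kb (fold 5.39) and a TEAD peak at 26.6 kb (fold 2.95).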

How the data were processed

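ChIP-seq libraries of 786-O cells comprise 5 immunoprecipitates and 4 inputs, 1 library per condition; the inputs have no peak list and were not used. The submitters' processing notes name hg19, fastp, Bowtie2 2.4.5 and MACS2. Which input and settings served each list is not given in the sources used here. The authors deposited for each peak a fold enrichment at the summit, a −log10 p and a −log10 q. The deposited whole-number score was within 1 of 10 times the −log10 q and was not used further.

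Summit fragments were solved from fold and p: p is the upper Poisson tail at the pileup, and fold divides pileup and background after 1 is added to each. Pileups were whole numbers in 3 lists and multiples of 0.587 (control) and 0.783 (XMU-MP-1) in the others. All peaks were solved except in the control list, where 99.19% were; every solution lay within 0.0046 of a whole number of fragments. Relative depth is the 1st percentile of background fragments over the shortest peak. Overlap needed 1 bp. Python 3.11.15, numpy 2.4.6, pandas 2.3.3, scipy 1.17.1 and matplotlib 3.10.9 were used, and the code was tested on simulated data. Values are given for all 6 genes of the rule and for every site called in 2 or more lists. The genes, windows and motifs were chosen with earlier results of these data known. A list of 20 other pathway genes was not analysed here, because the gene table used is on GRCh38.p14 and the peaks on hg19.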

Additional observations from a re-analysis of the deposited data

How the results depend on the processing

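Of 61 recomputed counts and shares, 54 stayed within 1.5 times (counts) or within the 95% interval (shares) of the reported value. The other 7 all came from keeping only peaks with a −log10 q of at least 10 in every list. Around the 6 genes the list labelled siTEAD4 then had 3 peaks, XMU-MP-1 p65 had 3 and TEAD had 2. The share of p65 peaks with a TEAD peak was then 0.0% for the list labelled siTEAD4 (of 3), 16.7% for control (of 12), 33.3% for XMU-MP-1 (of 3) and 13.3% for vehicle (of 15). This limit leaves 2 of the 11 TEAD peaks, so fewer could be shared. Shares of all peaks under the −log10 q limits are not given here, so the filtered shares have no background beside them. Replacing summit fragments by the deposited fold moved 3 of 9 ratios out of their counting interval, each for XMU-MP-1 over vehicle: to 0.498 at NFKB1, 0.48 at NFKB2 and 0.359 at BCL3. Folds are relative to the local background at each peak, and the XMU-MP-1 library was the deeper one. The cause of these moves was not tested. No direction reversed. No paired analysis was possible because there is a single library for every condition. The TEAD peaks of the group rested on 11 to 29 fragments; the effect of depth on which sites were called was not tested.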
